A study of Paxillus involutus ATCC 200175 with 12 samples.

Results

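The 70 bright array features described here kept nearly the same level in mycelium of the fungus Paxillus involutus whether or not glucose or ammonium was supplied, on the scale on which the values were deposited. After cyclic loess, another way of scaling arrays to each other, all 70 were lower with glucose. Cyclic loess takes out trends with brightness, and most other features as bright were higher with glucose as deposited. Whether this accounts for the lower values of the 70 was not tested. The 70 were chosen from 12214 features by their measured values: the mean log2 value over all 12 arrays had to be at least 13 and under 14, and the highest and lowest of the 4 group means had to differ by less than 0.2, a 1.15-fold difference. In that range of brightness lay these 70 and 597 further features, so 10.5% of all of them met the rule. A feature is a set of probes summarised to 1 value per array, and all 70 rested on 10 probes.

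Mycelium of the strain ATCC 200175 grew in pure culture on glass beads in a minimal medium for 9 days and without nitrogen for a further 24 h. It then stayed for 7 days in material extracted from maize compost with hot water, from which filtration had taken particles over 0.2 um and compounds under 10 kDa. All groups received the extract: OM+N+G with glucose and ammonium, OM+G with glucose, OM+N with ammonium, and OM with neither. Each group held 3 arrays of a single slide, read here as 3 cultures per group from the series' design text. The strain, medium, starvation and extract were common to all groups, no group without extract was analysed here, and the dose of either nutrient is not stated in the labels.

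Paxillus involutus lives in ectomycorrhizal symbiosis, in which a tree supplies the fungus with sugars and the fungus supplies the tree with nitrogen and other nutrients from soil. It descends from wood-decaying ancestors and attacks organic matter with oxidative chemistry. Transcripts that hold their level while carbon and nitrogen supply change are what expression studies look for when they choose reference transcripts. The features carry running numbers and no gene names: none of their IDs (0 of 12214) occurs among the 18033 genes listed for this strain's genome. No function is therefore given to any feature, and whether known reference genes such as those for actin or tubulin are among the 70 is not known.

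Array medians over all features lay between 11.74 and 11.78 on the log2 scale. A random-sequence control lay between 3.66 and 3.80, far below the 70 features and the 597 others of the same brightness. Subarrays 7 to 12 of the slide held the groups with glucose and subarrays 1 to 6 those without, with each group in consecutive subarrays, so the position on the slide and the nutrients cannot be told apart. Brightness of a feature depends on its probes as well as on its transcript, and levels of different features are not compared as amounts of mRNA.

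The stable bright features were a small part of the features in their range of brightness. The spread of the 4 group means, from the lowest to the highest, had a median of 0.139 over the 70 features, with values between 0.0294 and 0.199, against a median of 0.696 and values up to 1.87 over the other 597 features of the same brightness. The share of features under 0.2 was 10.5% between 13 and 14, against 16.6% of the 4001 features between 12 and 13 and 18.1% of the 5110 between 11 and 12. Above a mean of 14, 3 of 59 features (5.08%) stayed under 0.2. Near the random-sequence control it was 108 of 465 features (23.2%) between 3 and 4, where the median standard deviation (SD) within groups was 0.249. All of these values describe what the rule selects and are not tests.

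**Figure D1:**
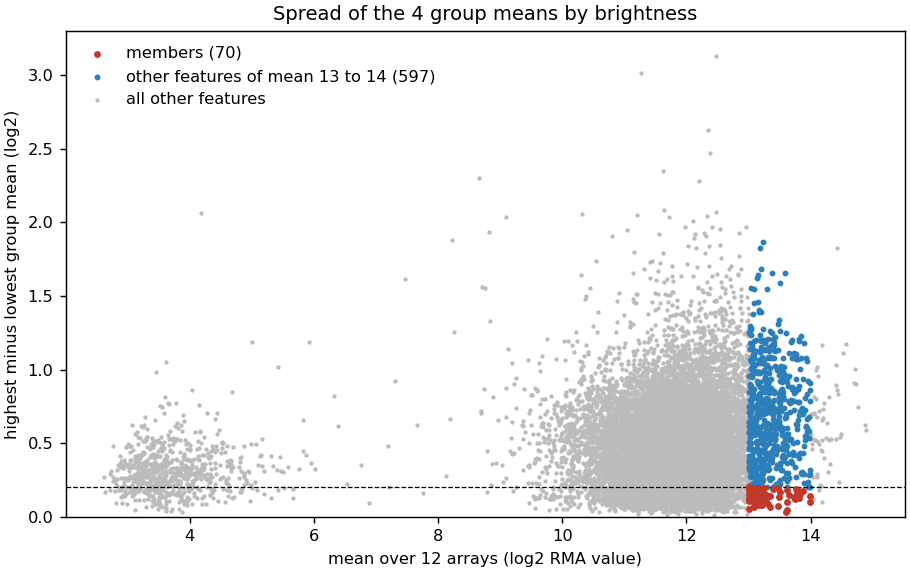
Highest minus lowest of the 4 group means (log2) against the mean over 12 arrays (log2 RMA value), 1 point per feature. The 70 stable bright features lie under the dashed line at 0.2, and the 597 other features of the same brightness lie above it, up to 1.87.

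The 4 features with the smallest spread of group means differed in how close their single arrays lay. paxillus_1477 lay at 13.54, 13.62 and 13.67 in OM+N+G, at 13.58, 13.57 and 13.62 in OM+G, at 13.72, 13.72 and 13.31 in OM+N, and at 13.73, 13.62 and 13.45 in the OM arrays (log2 values). The group means differed by only 0.0294, yet single arrays differed by 0.42, with OM+N replicate 3 and OM replicate 3 the lowest. paxillus_1510 lay at 13.61, 13.63 and 13.70 in OM+N+G, at 13.62, 13.70 and 13.53 in OM+G, at 13.62, 13.80 and 13.38 in OM+N, and at 13.66, 13.73 and 13.50 in the OM arrays. Its lowest array was again OM+N replicate 3, its group means spanned 0.0451 and its arrays 0.42. paxillus_9084 lay at 12.99, 13.03 and 12.92 in OM+N+G, at 12.99, 12.99 and 13.01 in OM+G, at 13.00, 13.08 and 13.01 in OM+N, and at 13.04, 12.97 and 13.00 in the OM arrays. Here the arrays themselves were close, within 0.16 of each other, and the group means within 0.0512. paxillus_1594 lay at 13.34, 13.28 and 13.36 in OM+N+G, at 13.34, 13.34 and 13.34 in OM+G, at 13.50, 13.29 and 13.38 in OM+N, and at 13.30, 13.36 and 13.40 in the OM arrays. OM+N replicate 1 was its highest array, and the group means differed by 0.0648. In all 4 features the arrays overlapped in each of the comparisons that add 1 nutrient.

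Small differences between group means thus went with very different spreads between replicates. Pooled over the groups, the within-group SD of paxillus_1477 was 0.141, among the 3 largest of the 70, and the largest belonged to paxillus_2082 (0.155) and paxillus_2769 (0.148). paxillus_2082 lay at 13.00, 13.08 and 13.27 in OM+N+G, at 13.13, 13.16 and 13.01 in OM+G, at 12.81, 13.16 and 13.12 in OM+N, and at 12.78, 12.99 and 13.14 in the OM arrays. paxillus_2769 lay at 13.27, 13.23 and 13.48 in OM+N+G, at 13.16, 13.30 and 13.20 in OM+G, at 13.58, 13.07 and 13.37 in OM+N, and at 13.17, 13.23 and 13.15 in the OM arrays. In both, OM+N held the widest replicate spread of the 4 groups, and OM+N+G replicate 3 was above the other arrays of its group. The 3 smallest SDs were those of paxillus_5361 (0.0316), paxillus_10172 (0.0323) and paxillus_7581 (0.0326). paxillus_5361 lay at 13.26, 13.28 and 13.25 in OM+N+G, at 13.18, 13.22 and 13.20 in OM+G, at 13.19, 13.16 and 13.20 in OM+N, and at 13.19, 13.28 and 13.18 in the OM arrays. Its 12 arrays lay within 0.118 of each other, the narrowest of the 70, and its OM+N+G arrays lay above those of OM+N and OM+G without overlap. paxillus_10172 lay at 13.13, 13.17 and 13.21 in OM+N+G, at 13.05, 13.09 and 13.05 in OM+G, at 13.10, 13.07 and 13.08 in OM+N, and at 13.07, 12.98 and 13.00 in the OM arrays. Its group mean was highest in OM+N+G and lowest in OM, and the group means spanned 0.154.

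Over all 12 arrays, 8 of the 70 features stayed within 0.2 from the lowest to the highest single array, a condition stricter than the rule. They were paxillus_1569, paxillus_1669, paxillus_2477, paxillus_5361, paxillus_5960, paxillus_7581, paxillus_9084 and paxillus_12515, named after their values were seen. None of the 597 other features of the same brightness did so, as the rule fixes, and 159 of all 12214 (1.3%) did. The range over single arrays had a median of 0.281 over the 70 features and reached 0.505, against a median of 0.934 over the others of the same brightness. Only 7 of the 70 had any array more than 0.2 from its own group's mean, against 343 of the 597 and 3144 of all 12214. In these 7 the arrays concerned were all from OM+N: replicate 1 in 4 features, replicate 2 in 2 and replicate 3 in 3, with more than 1 replicate in some features.

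**Figure D2:**
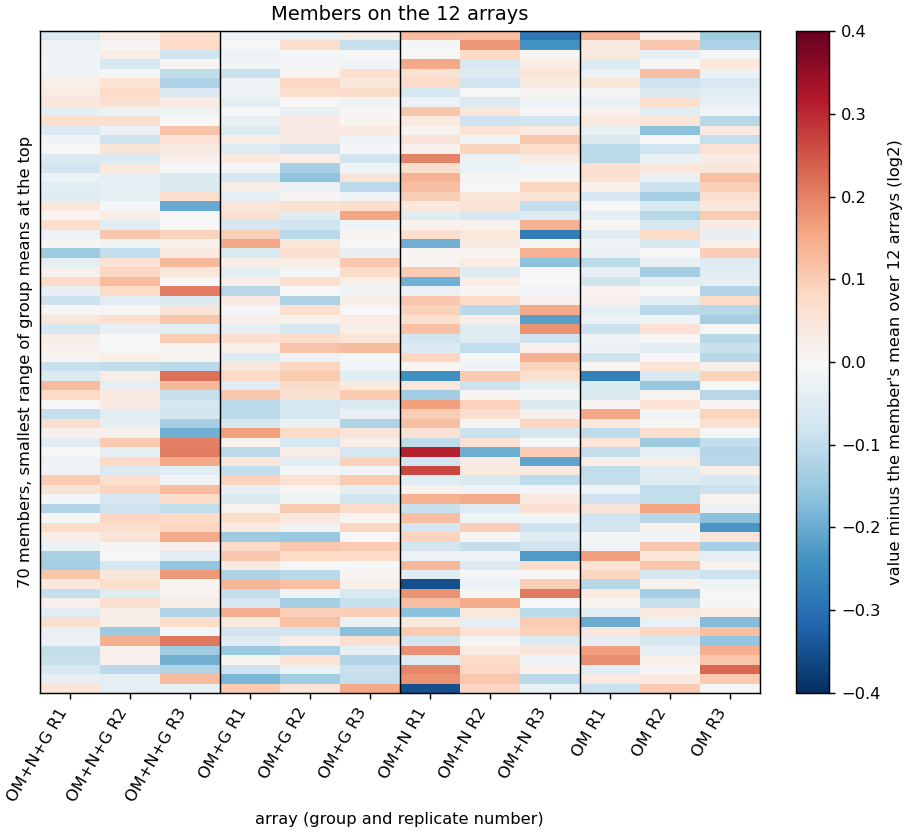
Value on each array minus the feature's mean over the 12 arrays (log2 colour scale), for the 70 stable bright features in rows, ordered by the spread of their group means, and the 12 arrays in columns. No column is uniformly high or low, and the strongest colours are in OM+N, whose arrays were the only ones more than 0.2 from their group's mean.

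Replicate arrays also lay closer together for the stable bright features than for the others of the same brightness, mostly in the groups without glucose. The rule used group means and not the spread around them, but a noisy feature passes it less often, so the comparison is a description. Within OM+N+G the median SD of 3 arrays was 0.0537 over the 70 features, against 0.0617 over the 597 others, and within OM+G it was 0.0479 against 0.0513. Within OM+N it was 0.0768 against 0.16, and within OM 0.0637 against 0.158. Among all 12214 features the median SD with glucose was 0.0766 when ammonium was given and 0.0624 when it was not. Without glucose the corresponding medians were 0.0841 and 0.101. The 70 thus lay below all features in every group, while the 597 lay above all features only where glucose was absent. The wider gap without glucose therefore holds against the 597, and OM+N did not show it against all features. The SD was larger in OM than in OM+G for 53 of the 70 features (75.7%), against 538 of the 597 (90.1%), and larger in OM+N than in OM+N+G for 45 (64.3%), against 499 (83.6%). Over all features these shares were 69.3% and 53.6%, below those of the 70.

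**Figure D3:**
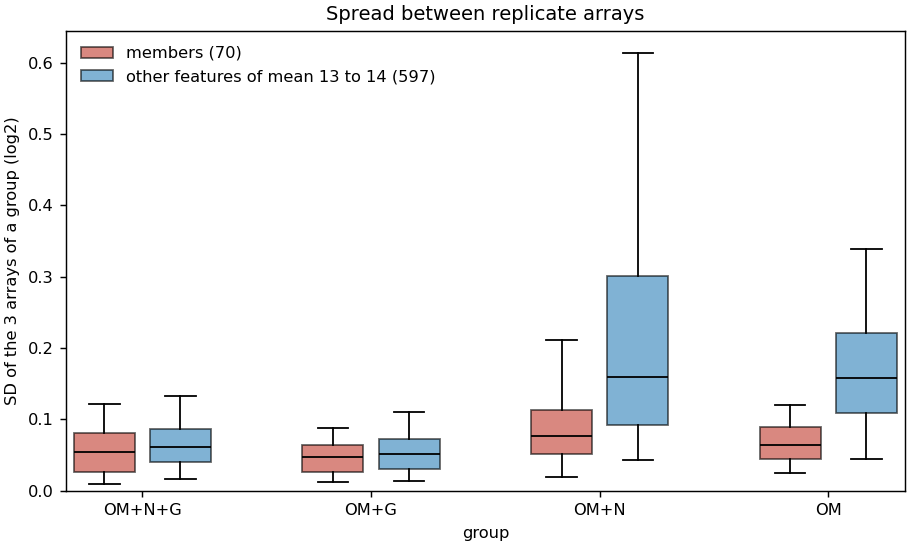
SD of the 3 arrays of each group (log2) for the 70 stable bright features (left box of each pair) and the 597 other features of the same brightness (right box). Lines are medians, boxes the quartiles and whiskers the central 90% of features. The boxes are alike in OM+N+G and OM+G, and in OM+N and OM the left box is lower, with medians of 0.0768 and 0.0637 against 0.16 and 0.158.

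The deviations of single OM and OM+N arrays from their group means were set beside the direction of each feature's glucose change. For the OM arrays that direction was taken from OM+N+G minus OM+N, which shares no array with OM, and for the OM+N arrays from OM+G minus OM. On OM replicate 1, 40 of the 70 stable features (57.1%) lay off their OM mean towards the glucose direction, against 171 of the 597 others (28.6%). On OM replicate 2 it was 48 (68.6%) against 572 (95.8%), and on OM replicate 3 it was 23 (32.9%) against 41 (6.87%). On OM+N replicate 1 it was 30 (42.9%) against 87 (14.6%). On OM+N replicate 2 the counts were 37 (52.9%) against 511 (85.6%), and on OM+N replicate 3 they were 37 (52.9%) against 376 (63%). Over all features the shares were 34.7%, 80.7% and 23.8% on OM replicates 1, 2 and 3, and 28.3%, 68.8% and 57% on OM+N replicates 1, 2 and 3. These shares rest on single arrays and on very small glucose changes in the 70 features, and deviations within a group sum to 0, so its 3 arrays do not count separately.

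As a set the 70 features had similar medians on all arrays. The rule holds the group means of each feature within 0.2, so similar medians and small mean deviations follow largely from it. The 597 others set beside them are those that failed the rule, so the contrast is a description. Their median value lay between 13.17 on OM+G replicate 1 and 13.26 on OM+N replicate 1, while the median of the 597 others lay between 12.95 on OM+N replicate 1 and 13.49 on OM+G replicate 3. The highest group mean fell in OM+N+G for 20 of the 70, in OM+G for 18, in OM+N for 25 and in OM for 7. OM+N+G held the lowest mean for 16, OM+G for 14, OM+N for 15 and OM for 24, and 1 feature, paxillus_12515, had the same lowest mean in OM+G and OM. Mean deviations from the feature's own mean were 0.004 ± 0.056 in OM+N+G, 0.001 ± 0.058 in OM+G, 0.011 ± 0.058 for OM+N and -0.016 ± 0.051 for OM (SD over 70 features).

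A second description asks whether features chosen in this way also stayed level on arrays that took no part in the choice. The rule was applied to 8 arrays, leaving out the 4 arrays of 1 replicate number, and the left-out arrays were then read. With replicate number 1 left out, 77 features were chosen, and 38 of them (49.4%) spanned less than 0.2 over the left-out arrays, against 14 of 600 (2.33%) not chosen in the same range of brightness. With number 2 left out it was 38 of 52 (73.1%) against 51 of 592 (8.61%), and with number 3 left out 25 of 71 (35.2%) against 15 of 598 (2.51%). Together 101 of 200 choices (50.5%) held, against 80 of 1790 (4.47%). A span over 4 single arrays carries more noise than a span of means, and the median span of the chosen features was 0.204, 0.167 and 0.235 on the left-out arrays, against 0.846, 0.504 and 0.709 for those not chosen. The features not chosen were those that had failed the rule on the other 8 arrays of the same groups. The contrast with them therefore follows in part from the choice. The 3 choices share arrays, and a feature can be counted up to 3 times in the totals, so no test was made of the difference. Of the chosen features 59, 49 and 57 belonged to the 70.

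**Figure D4:**
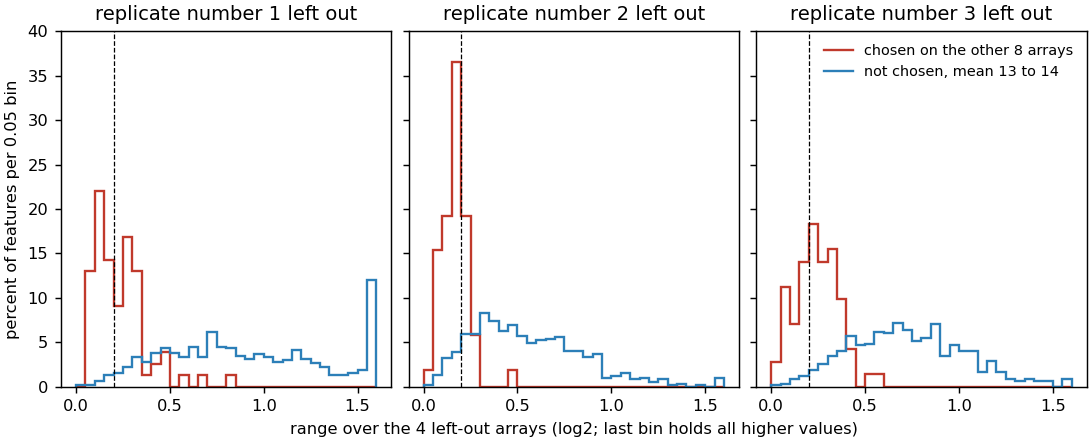
Range over the 4 left-out arrays (log2, equal bins, highest values in the last bin) as percent of the features chosen on the other 8 arrays (peaks at the left of each panel) and of the features of the same brightness not chosen. The dashed line marks 0.2, and 49.4%, 73.1% and 35.2% of the chosen features lie left of it, against 2.33%, 8.61% and 2.51% of those not chosen.

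Set against glucose without ammonium (OM+G minus OM), the 70 features moved little and in both directions. By limma, a linear model fitted to all features, 8 of the 70 passed a Benjamini-Hochberg adjusted p of 0.05 over all features, 4 upward and 4 downward, beside 66.2% of all 12214 features; the rule used these group means, so the difference in share is fixed by it. Log2 changes ran between -0.198 and 0.176 with a median of 0.02, and 40 were positive, 29 negative and 1 zero, while after cyclic loess all 70 were negative. paxillus_3829 lay at 13.21, 13.10 and 13.24 in OM+N+G, at 13.17, 13.16 and 13.07 in OM+G, at 13.34, 13.30 and 13.34 in OM+N, and at 13.29, 13.32 and 13.36 in the OM arrays. Its OM+G arrays were all below its OM arrays, and the change was -0.19 (SE 0.06). paxillus_7293 lay at 13.26, 13.23 and 13.15 in OM+N+G, at 13.25, 13.22 and 13.27 in OM+G, at 13.12, 13.10 and 13.06 in OM+N, and at 13.07, 13.11 and 13.10 in the OM arrays. Its OM+G arrays were all above its OM arrays, with a change of 0.15 (SE 0.05). The arrays of OM+G and OM did not overlap for 18 of the 70 features (25.7%), 12 higher and 6 lower in OM+G, beside 71.7% of all features. The number of calls depended on single arrays: it was 2 without OM replicate 1, OM replicate 3, OM+G replicate 1 or OM+G replicate 2, and 5 without OM+G replicate 3, beside 58.9% to 61.8% of all features in these fits.

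With ammonium present (OM+N+G minus OM+N), 5 of the 70 features were called, all lower with glucose, beside 73.4% of all features. Changes ran between -0.196 and 0.153 with a median of -0.02, and 33 were positive and 37 negative, while after cyclic loess all 70 were negative. paxillus_921 lay at 12.87, 12.94 and 12.85 in OM+N+G, at 13.04, 13.00 and 13.01 in OM+G, at 13.14, 12.95 and 13.08 in OM+N, and at 13.06, 13.12 and 13.02 in the OM arrays. The arrays of OM+N+G lay below those of OM+N, with a change of -0.17 (SE 0.06), and below those of OM+G as well. paxillus_8049 lay at 13.07, 13.03 and 13.01 in OM+N+G, at 13.05, 13.11 and 13.05 in OM+G, at 13.33, 13.22 and 13.15 in OM+N, and at 13.09, 13.13 and 13.36 in the OM arrays. Its OM+N+G arrays lay below its OM+N arrays, with a change of -0.20 (SE 0.07). paxillus_3829 was the only feature called for glucose at both ammonium levels, with -0.15 (SE 0.06) here. Arrays did not overlap for 18 features (25.7%), 7 higher and 11 lower in OM+N+G, beside 75.9% of all. In 4 of the 70 features the groups with and without glucose stood apart in the same direction at both ammonium levels, beside 64.1% of all features, and in 0 in opposite directions, beside 0.467% of all. With OM+N replicate 1 left out, limma made 0 calls among the 70, against 2 without OM+N+G replicate 2, 3 without OM+G replicate 1, OM+G replicate 2 or OM+N replicate 3, and 8 without OM replicate 2, beside 69.2% to 74.4% of all features in these fits.

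For ammonium without glucose (OM+N minus OM), limma called 0 of the 70 features, beside 0.336% of all features. An unadjusted p under 0.05 was found for 6 of the 70, beside 15.2% of all features. Changes ran between -0.148 and 0.169 with a median of 0.02, and 45 of the 70 were positive (67 after cyclic loess). The arrays did not overlap for 4 features (5.71%), all higher in OM+N, beside 15.9% of all. One of them was paxillus_5058, given with its neighbour in the numbering, and another paxillus_10172, one of the 3 with the smallest SD. For ammonium with glucose (OM+N+G minus OM+G), limma called 0 of the 70, beside 4.89% of all features, and 7 had an unadjusted p under 0.05, beside 16.1% of all. Changes ran between -0.165 and 0.182 with a median of 0.01, and 37 were positive and 33 negative. Here the arrays did not overlap for 19 features (27.1%), 9 higher and 10 lower in OM+N+G, beside 27.1% of all features, so the share equalled the background. The interaction, the glucose change with ammonium minus that without, was called by limma for 0 of the 70, beside 0.737% of all features, and 0 had an unadjusted p under 0.05, beside 12.6% of all. The rule used the group means behind each of these counts, so nothing is read from the differences in share.

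A missing call does not show that a level did not differ, and the arrays bound the differences only in part. The standard error of a change between 2 groups had a median of 0.07 over the 70 features and lay between 0.05 and 0.11. The 95% interval of the change stayed within 0.2 on either side of 0 in 29 of the 70 features for glucose without ammonium, in 24 for glucose with ammonium, in 40 for ammonium without glucose and in 39 for ammonium with glucose. Over all 12214 features these counts were 892, 721, 2900 and 3029, in the same order. The interval did so in all 4 comparisons for 6 of the 70, beside 143 of all 12214 features. The rule held every change of the 70 under 0.2, so the differences in share are not read as a result. These intervals take no account of the choice of features by the same means. Of the 70 features, 58 were called in none of the 4 comparisons, beside 21.6% of all features, and 12 in at least 1, beside 78.4%. In 29 the arrays overlapped in all 4 comparisons, beside 12.9% of all features.

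The limit of 0.2 cut through a continuous series of features. Just inside it, paxillus_3918 lay at 13.05, 12.96 and 12.97 in OM+N+G, at 13.10, 13.05 and 13.15 in OM+G, at 12.65, 13.08 and 12.97 in OM+N, and at 12.91, 13.10 and 12.99 in the OM arrays. Its spread was 0.199, and OM+N replicate 1 was the lowest of its arrays. paxillus_12813 had group means of 13.03 ± 0.09 in OM+N+G, 12.87 ± 0.05 in OM+G, 13.07 ± 0.15 in the OM+N arrays and 13.07 ± 0.04 in the OM arrays (log2, SD, n = 3), a spread of 0.199, and was called lower in OM+G than in OM. paxillus_8049 spanned 0.196, and paxillus_9660 0.194, with group means of 13.14 ± 0.11 in OM+N+G, 13.21 ± 0.09 in OM+G, 13.23 ± 0.07 in the OM+N arrays and 13.33 ± 0.08 in the OM arrays. Just outside, paxillus_1811 lay at 13.56, 13.62 and 13.72 in OM+N+G, at 13.82, 13.70 and 13.53 in OM+G, at 13.24, 13.55 and 13.68 in OM+N, and at 13.69, 13.72 and 13.67 in the OM arrays. Its spread was 0.2001, and OM+N replicate 1 was the lowest of its arrays. paxillus_3730 had a spread of 0.201, paxillus_1392 of 0.202 and paxillus_10234 of 0.203. The last had group means of 13.29 ± 0.09 in OM+N+G, 13.25 ± 0.03 in OM+G, 13.42 ± 0.06 in the OM+N arrays and 13.22 ± 0.08 in the OM arrays. The difference between the smallest and the largest of these 8 spreads was under the within-group SD of any of the 8 features. With a limit of 0.15 the rule kept 42 features, and with 0.25 it kept 97.

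The brightest and the dimmest of the 70 stood at the edges of the chosen range. paxillus_12515 lay at 13.99, 14.04 and 14.02 in OM+N+G, at 13.94, 13.92 and 13.99 in OM+G, at 14.01, 14.08 and 14.06 in OM+N, and at 13.88, 13.91 and 14.05 in the OM arrays. Its mean of 13.99 lay just under 14, and several of its arrays were above 14. paxillus_1669 had group means of 13.89 ± 0.01 in OM+N+G, 14.03 ± 0.05 in OM+G, 14.01 ± 0.05 in the OM+N arrays and 14.01 ± 0.02 in the OM arrays, and its OM+N+G arrays lay below all of its other arrays. paxillus_1230 had 13.96 ± 0.01 in OM+N+G, 13.92 ± 0.05 in OM+G, 13.86 ± 0.10 in the OM+N arrays and 13.79 ± 0.12 in the OM arrays, with its widest replicate spread in OM. At the lower edge, paxillus_3918, paxillus_4233 and paxillus_9084 each had a mean over 12 arrays of 13.00, and paxillus_4233 had group means of 13.06 ± 0.07 in OM+N+G, 13.00 ± 0.10 in OM+G, 12.95 ± 0.19 in the OM+N arrays and 13.00 ± 0.06 in the OM arrays. The mean over 12 arrays had a median of 13.20 over the 70 features, against 13.29 over the 597 others.

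The running numbers of the 70 features lay between 97 and 12813, with a median of 5642.5, against 5304 for the others of the same brightness and 7503.5 for all features. Consecutive numbers occurred in 2 pairs. In the first pair, paxillus_5058 lay at 12.99, 12.95 and 12.96 in OM+N+G, at 12.91, 13.00 and 12.99 in OM+G, at 13.27, 13.05 and 13.04 in OM+N, and at 12.91, 12.97 and 13.03 in the OM arrays. Its OM+N arrays were above its OM arrays and above its OM+N+G arrays. paxillus_5059 lay at 12.99, 13.01 and 12.98 in OM+N+G, at 13.06, 13.01 and 12.93 in OM+G, at 13.16, 13.04 and 13.12 in OM+N, and at 13.06, 12.95 and 13.13 in the OM arrays. Its mean was highest in OM+N too. In the second pair, paxillus_7580 had group means of 13.42 ± 0.10 in OM+N+G, 13.37 ± 0.06 in OM+G, 13.32 ± 0.07 in the OM+N arrays and 13.27 ± 0.07 in the OM arrays, highest in OM+N+G, and paxillus_7581 of 13.07 ± 0.01 in OM+N+G, 13.08 ± 0.02 in OM+G, 13.14 ± 0.05 in the OM+N arrays and 13.08 ± 0.03 in the OM arrays, highest in OM+N. What the numbering of the features stands for is not stated in the sources used here.

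Stability was relative to the scaling of the arrays, and most of the 70 features left the limit of 0.2 after cyclic loess or quantile normalization. In the deposited values most of the 597 others of the same brightness were higher with glucose, 424 without ammonium and 426 with it, with median changes of 0.27 and 0.44. Cyclic loess by construction takes out trends with brightness, and these medians were then 0.11 and 0.18. It left all 70 stable features lower with glucose at both ammonium levels, with medians of -0.14 and -0.28, and limma then called 19 (27.1%) and 50 (71.4%) of them, including 4 of the 8 and all 5 called as deposited. Over all features the shares called after cyclic loess were 64.3% and 71.3%, so the 50 calls with ammonium were at the background. After quantile normalization 68 and 70 of the 70 were lower with glucose, with medians of -0.13 and -0.21, and 24 (34.3%) and 43 (61.4%) were called, beside 62.6% and 71.5% of all features. After scaling to the 75th percentile 43 and 49 were lower, with medians of -0.04 and -0.08, and 11 (15.7%) and 15 (21.4%) were called, beside 66.9% and 74.1% of all features. For ammonium without glucose, 45 of the 70 were higher in OM+N as deposited, 67 after cyclic loess, 58 after quantile normalization and 49 after 75th percentile scaling, and 0 were called by limma under each, beside 0.336% to 0.483% of all features. Which scaling comes closest to the amounts of mRNA was not tested.

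The spread of the group means reached 0.2 or more in 57 of the 70 features after cyclic loess, with a median of 0.305 and a highest value of 0.485. It did so in 46 after quantile normalization, with a median of 0.245, and in 14 after 75th percentile scaling. Applied afresh to the cyclic loess values, the rule chose 77 features, of which 11 were among the 70 (15.7% of the 70 and 14.3% of the 77). For quantile normalization it chose 84 with 24 shared (34.3% and 28.6%), and for 75th percentile scaling 71 with 56 shared (80% and 78.9%).

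**Figure D5:**
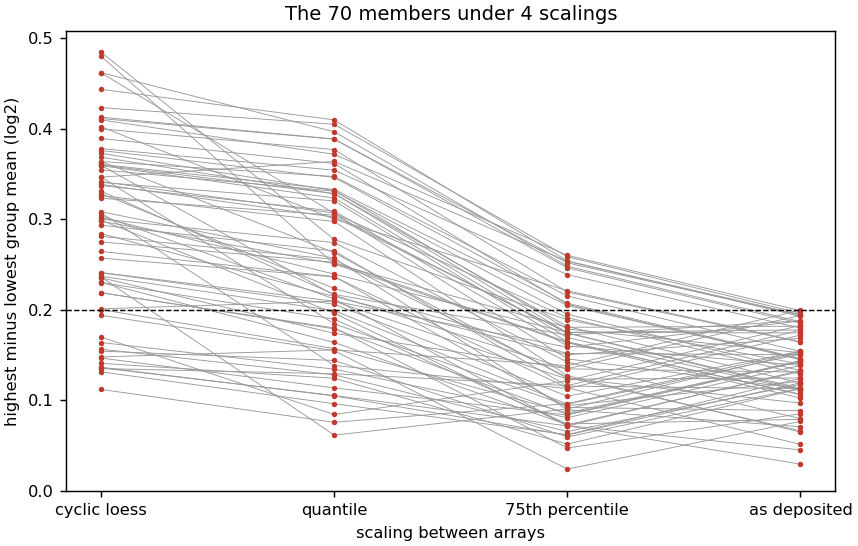
Highest minus lowest group mean (log2) of each of the 70 stable bright features under 4 scalings between arrays, 1 line per feature. The dashed line marks 0.2: as deposited all 70 lie under it, and 14 lie at or above it after 75th percentile scaling, 46 after quantile normalization and 57 after cyclic loess.

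The rule was met under all 4 scalings by 11 features, named here after their values were seen: paxillus_2082, paxillus_4749, paxillus_5478, paxillus_5754, paxillus_5960, paxillus_7122, paxillus_7293, paxillus_7570, paxillus_7965, paxillus_9202 and paxillus_11109. As deposited, all 11 had a positive glucose change at both ammonium levels, and after cyclic loess all 11 had a negative one at both. All 70 were lower with glucose after cyclic loess, so meeting the limit there favoured features that were higher as deposited. Neither sign is therefore read as a trait of the 11. paxillus_5960 had the smallest spread among them as deposited, at 0.0766, and 0.194 after cyclic loess. paxillus_7293, called higher with glucose in OM+G than in OM as deposited, spanned 0.154 as deposited, 0.112 after cyclic loess and 0.0756 after quantile normalization. paxillus_2082 belonged to the 11 although its replicate spread was the largest of the 70. paxillus_1477, with the smallest spread as deposited, was not among them: it spanned 0.304 after cyclic loess and 0.212 after quantile normalization.

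Membership also moved with the arrays used. Leaving out each of the 12 arrays in turn and applying the rule again gave between 60 features, without OM+N replicate 2, and 82, without OM+N replicate 1, and between 55 and 68 of the 70 were among them. OM replicate 2 lay at a median distance of 0.048 from the group mean in the 70 features, against 0.168 in the 597 others, and OM+N replicate 1 at 0.051 against 0.136, the largest distances of their groups in the others. Without both, the rule chose 77 features, 60 of them among the 70 (85.7%), and by limma 12 of the 70 were called for glucose without ammonium and 1 with it, beside 70.1% and 71.2% of all features.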

How the data were processed

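The authors deposited 1 log2 value per feature and array, made by RMA (per the submitters' processing notes, with no version given in the sources used here), and log2 was read from the range of the values. RMA usually corrects background and equalises arrays, so changes are relative to the other features of an array. The array files and the series table held identical values (0 differed). The random-sequence control, summarised from 10000 probes, was left out. Group means were fitted over all 12214 features and 12 arrays with limma 3.58.1 under R 4.3.3 (8 residual and 4.72 prior degrees of freedom), with Benjamini-Hochberg adjustment over all features and no filter; the fit was tested on simulated data. Precision is limited by the number of arrays, and p-values measure the spread between cultures and subarrays together. The members, the rule for naming features (smallest and largest spreads, SDs and means, strongest calls, consecutive numbers) and the alternatives were chosen with earlier results of these data known. Alternatives were cyclic loess, quantile and 75th percentile scaling, a filter on dim features, a trend with robust moderation, fits to the compared arrays alone, a replicate block, other limits, group medians and left-out arrays. Lists of known reference genes could not be applied, because no feature has a name here.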

Additional observations from a re-analysis of the deposited data

How the results depend on the processing

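The choice of the 70 features depends on the scaling. The spread of their group means had a median of 0.139 as deposited, but 0.305 after cyclic loess and 0.245 after quantile normalization. After 75th percentile scaling the median was 0.140, with 14 of the 70 at 0.2 or more, and the rule chose 71 features, 56 of them among the 70. The median within-group SD of the 70 was 0.07 as deposited and 0.10 after cyclic loess. Of 70 features, limma called 8 for glucose without ammonium and 5 with it; the counts were 19 and 50 after cyclic loess (64.3% and 71.3% of all features), 24 and 43 after quantile normalization (62.6% and 71.5%), 15 with ammonium after 75th percentile scaling (74.1%), 3 and 2 with a trend and robust moderation (66.3% and 73.4%), and 5 and 2 in fits to the compared arrays alone (65.4% and 71.5%). The 50 calls are 71.4% of the 70, at the background. Without OM replicate 2 and OM+N replicate 1 together, 1 was called with ammonium (71.2% of all features). Leaving out 1 array at a time gave 2 to 10 calls without ammonium (58.9% to 68.5% of all features) and 0 to 8 with it (69.2% to 74.4%). For ammonium at either glucose level and for the interaction, limma called 0 of the 70 under every setting run (0.0246% to 1.08% of all features without glucose, 2.67% to 7.13% with it and 0.205% to 1.18% for the interaction), and the interaction had no fit to compared arrays alone because it uses all groups. The series table gave the same 70 features. Beyond what the settings' construction shows (fewer arrays, another scaling), the cause was not tested. A limit of 0.15 kept 42 features, and left-out single arrays gave 60 to 82 features, median spreads of 0.134 to 0.152 and median SDs of 0.064 to 0.0725. On arrays left out of the choice, 35.2% to 73.1% of choices held. Same-numbered arrays of different groups deviated together with r between -0.308 and 0.425, over 0.1 in 4 of 18 pairs. The highest r was that of OM+N and OM at replicate 2. Deviations within a group sum to 0, so these r are linked, and whether same-numbered arrays shared a batch was not tested. With the replicate number as a block, limma called 5 of the 70 for glucose without ammonium and 4 with it (65.5% and 72.9% of all features).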
